A study of Mus musculus with 12 samples.

Results

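Kidneys of Smad3 knockout (KO) mice obstructed for 5 days were compared with normal kidneys of Smad3 KO mice, over the noncoding transcripts listed for each library. The comparison holds 4 of the 12 libraries of the series, 2 from KO kidneys after unilateral ureteral obstruction (KO UUO 1 and 2) and 2 from untreated KO kidneys (KO normal 1 and 2), chosen by the genotype and disease model of their labels. All animals were C57BL/6J mice, and each library name carries an identifier of its own. Obstruction was made by tying off the left ureter, in groups of 8 mice of both sexes weighing 22 to 25 g, and the sex and age of the animal behind each library are not given. The study's protocol speaks of sham surgery as the control, whereas the KO normal libraries are labelled untreated, so the effect of ureter ligation and that of anesthesia and surgery cannot be told apart. Wild-type (WT) kidneys, 2 normal and 2 obstructed in the same way, serve here to ask whether the response of the knockout differed from that of the wild type.

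Smad3 is a transcription factor that is phosphorylated by the activated TGF-β receptor and then enters the nucleus to switch genes on and off, among them collagens and other genes of scar tissue. Ureteral obstruction is a standard model of kidney fibrosis: pressure and stretch injure the tubules, leukocytes enter, fibroblasts become activated and matrix builds up between the tubules, and mice without Smad3 are known to scar less in this model. Long noncoding RNAs are transcripts without a protein product, some of which help to organise chromatin or nuclear bodies, while microRNAs are cut from longer precursors and silence mRNAs through a short seed sequence near their 5′ end. The tables give noncoding transcripts, so Smad3 itself, the collagens and other coding readouts were not analysed here. Of 25 kidney cell type markers looked for, 2 were matched, and both only as mRNA elements (vimentin and Spi1), so the cell types of the samples could not be checked. In whole kidney RNA, fewer cells of a type and less RNA per cell cannot be told apart.

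The 4 libraries were of like depth, at 6096284 and 5961009 reads for KO normal 1 and 2 and at 6514010 and 6188358 reads for KO UUO 1 and 2, on 42452 transcripts listed in any library. KO UUO 1 stood apart. Its reads covered 0.285 of the length that randomly placed reads would cover (median over those transcripts of more than 500 bases that had 20 to 200 reads), against 0.782, 0.744 and 0.787 in KO normal 1, KO normal 2 and KO UUO 2, and 2 libraries outside this comparison, WT UUO 1 and KO anti-GBM 1, were low as well (0.447 and 0.338). The transcript ncRNA_aligned_3554 took 3.68% of the reads of KO UUO 1 and between 29.00% and 35.2% of the other 3, and ncRNA_aligned_7824 took 15.7% against 2.02% to 6.90%. Across log2 levels the 2 obstructed libraries correlated at r = 0.747, below the r of 0.888 and 0.893 between KO UUO 2 and the 2 normal libraries (a description across transcripts, which are not independent). Xist, the RNA that coats the inactive X chromosome of female cells, had 119 and 5636 reads in the normal and 4 and 6 reads in the obstructed KO libraries. The part of these differences in the results that follow was not tested, except where a value without KO UUO 1 is given.

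Of the transcripts, 24816 had enough reads to be tested, 8035 with a match in sequence databases and 16781 predicted transcripts without one. Counts were tested with edgeR's quasi-likelihood test, fitted over all 12 libraries with 1 mean per group, and a transcript was called when its Benjamini-Hochberg adjusted p was under 0.05. Levels are CPM, read counts scaled to a common library total, after TMM scaling, which sets libraries to a common level by the bulk of transcripts; they are not divided by length and are compared only between libraries. Log2 fold changes are obstructed minus normal, with their standard error (SE). The labels do not say that the libraries of a group came from separate animals, litters or batches, so p-values measure only the spread between these libraries, which may be technical.

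After 5 days of obstruction, 3 transcripts were higher in the knockout kidney and none was lower at an adjusted p under 0.05, which is 0.0121% of those tested. Before adjustment, p was under 0.05 for 700 transcripts (2.82%) on the higher and 783 (3.16%) on the lower side, and the lowest adjusted p among the lower ones was 0.0687. DESeq2 called 122 transcripts, 66 higher and 56 lower. With 1 library left out in turn edgeR made 1 to 184 calls, the 184 (26 higher, 158 lower) without KO UUO 2, 16 without KO anti-GBM 1, 7 without any one of the other anti-GBM libraries, 5 without either WT UUO library, and 1 without KO normal 1 or either WT normal library. Wild-type kidneys gave 600 calls in the same fit (2.42%), 169 higher and 431 lower, but a difference in the number of calls is not a test of a difference in response. All 3 called transcripts are long and match mouse cDNAs for which the tables give no function: ncRNA_aligned_6916 (cDNA AK036034, 11781 bases), ncRNA_aligned_1409 (AK083502, described as noncoding, 10069 bases) and ncRNA_aligned_1946 (AK016173, 7652 bases), where the median length of a tested transcript was 896 bases.

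The level of ncRNA_aligned_6916 was 138.5 and 138.0 CPM in KO normal 1 and 2 and 1511 and 1322 CPM in KO UUO 1 and 2. Both obstructed libraries thus stood far above both normal ones, which were nearly equal. Its log2 fold change was 3.36 (SE 0.44, edgeR adjusted p = 0.00194). Reads covered 91.6% to 99.6% of its length in each of the 4 libraries. In wild-type kidney it went from 99.4 and 79.1 CPM to 1529 and 754.7 CPM, a log2 fold change of 3.68, and the difference between the genotypes was -0.32 (SE 0.57, edgeR adjusted p = 1.00). It is the one call of the 3 that was kept without KO UUO 1 (log2 fold change 3.24, edgeR adjusted p = 0.0030), but it was lost without KO normal 1 (edgeR adjusted p = 0.105) or KO normal 2 (0.0767).

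The second call, ncRNA_aligned_1409, measured 54.8 and 131.9 CPM in the normal and 799.5 and 566.5 CPM in the obstructed KO libraries. The normal libraries differed from each other by more than the obstructed ones did in proportion, and the groups did not overlap. Its log2 fold change was 2.87 (SE 0.48, edgeR adjusted p = 0.0435), and in wild-type kidney, at 161.8 and 136.8 CPM against 1220 and 650.2 CPM, it was 2.65 (edgeR adjusted p = 0.00254). The difference between the genotypes was 0.22 (SE 0.63, edgeR adjusted p = 1.00). Reads covered 77.3% and 90.5% of it in the normal and 97.4% and 99.0% in the obstructed libraries. This call was lost without any one of 5 libraries, with edgeR adjusted p-values of 0.660 (KO normal 1), 0.0503 (KO normal 2), 0.0829 (KO UUO 1), 0.113 (WT normal 1) and 0.115 (WT normal 2).

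The third, ncRNA_aligned_1946, was the most abundant of the called transcripts and the one whose response differed between genotypes. It measured 1027 and 1152 CPM in the normal and 8120 and 4877 CPM in the obstructed KO libraries. In wild-type kidney it was already at 7118 and 8666 CPM without obstruction and at 5203 and 2614 CPM with it. The normal knockout libraries were thus the low ones, and the obstructed knockout libraries lay in the range of the wild type. In the knockout the log2 fold change was 2.58 (SE 0.44, edgeR adjusted p = 0.0435), in the wild type -1.01 (edgeR adjusted p = 0.236), and their difference was 3.59 (SE 0.60, edgeR adjusted p = 0.0186). Between 94.5% and 96.0% of its length was covered in each of the 4 KO libraries. The call in the knockout was lost without KO normal 1 (edgeR adjusted p = 0.551), KO normal 2 (0.286), KO UUO 1 (0.132), WT normal 1 (0.113) or WT normal 2 (0.115).

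**Figure D1:**
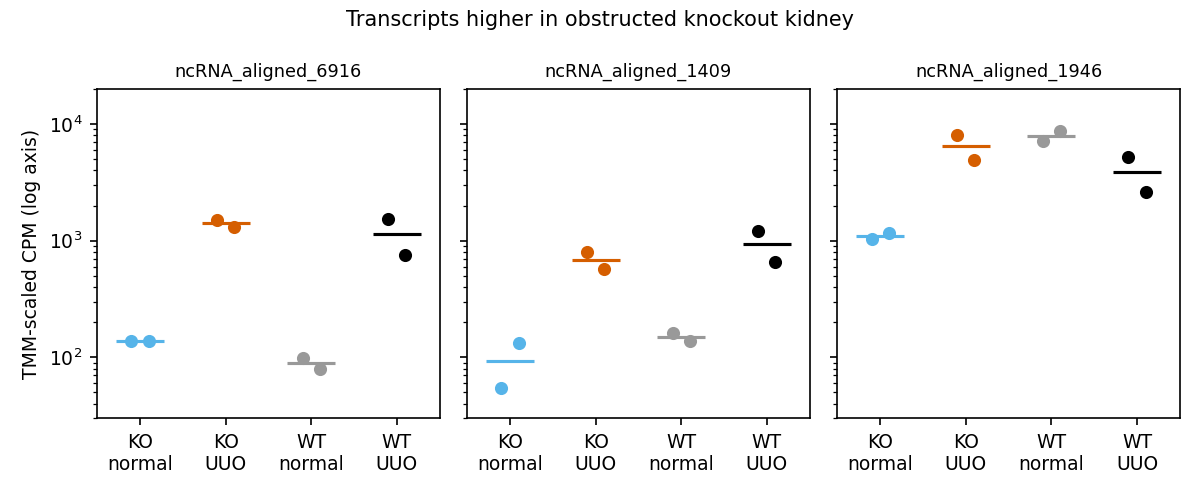
Levels of the 3 called transcripts in TMM-scaled CPM (log axis) by group; each point is 1 library and each line the mean of 2. In all 3 panels both KO UUO libraries lie above both KO normal libraries, and only for ncRNA_aligned_1946 are the WT normal libraries high, at 7118 and 8666 CPM.

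Other settings moved the calls. Over 11 other ways of scaling, filtering or testing, ncRNA_aligned_6916 was called in 9, ncRNA_aligned_1409 in 6 and ncRNA_aligned_1946 in 5. A fit without the 3 libraries of low coverage breadth called 211 of 24802 transcripts (0.851%), 105 of them lower, with ncRNA_aligned_6916 at a log2 fold change of 3.24, ncRNA_aligned_1409 at 2.58 and ncRNA_aligned_1946 at 2.14. That fit has KO UUO 2 as its lone obstructed knockout library, which is assumed to vary like the other groups.

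Since few transcripts passed the adjusted test, the next level of description takes transcripts with an unadjusted p under 0.05, a mean of 10 CPM or more over the 4 libraries and groups that do not overlap. These are ranked values and not calls. By this filter 161 transcripts (0.649% of those tested) were on the higher side and 400 (1.61%) on the lower side, 142 and 319 of them with a database match. The median length was 5042 bases on the higher and 2255 bases on the lower side, against 3584 bases over the 4303 transcripts of 10 CPM or more. Among those 4303, with no p asked for, the groups did not overlap for 646 on the higher side (15%) and 1368 on the lower side (31.8%).

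**Figure D2:**
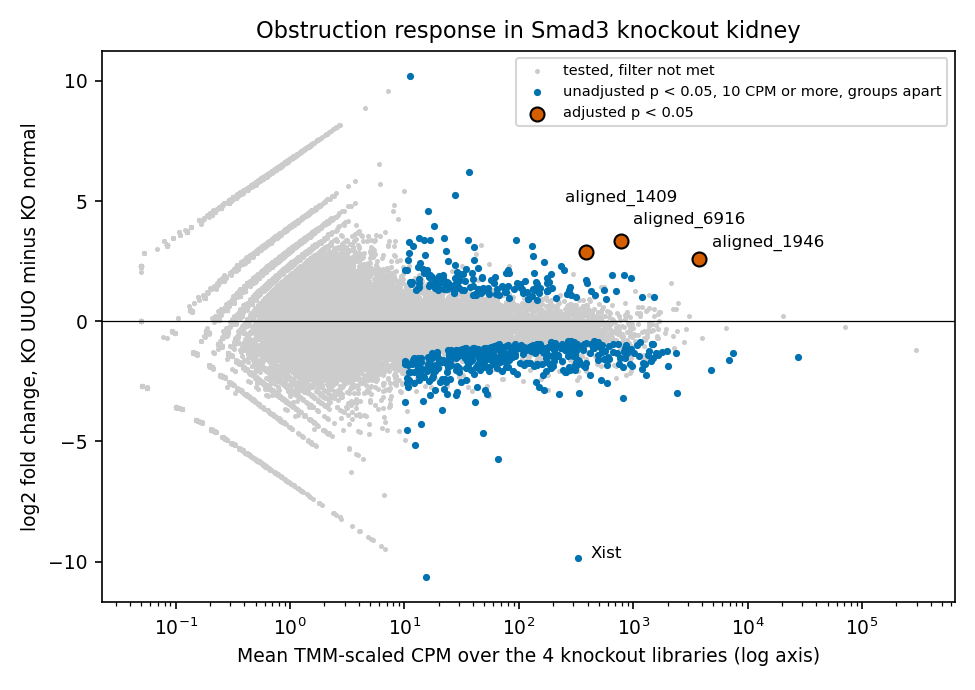
Log2 fold change of KO UUO minus KO normal against the mean level in TMM-scaled CPM (log axis) of 24816 tested transcripts. Orange points are the 3 calls, blue points the 161 higher and 400 lower transcripts that pass the filter described, and Xist, labelled, has a log2 fold change of -9.86.

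On the higher side the matched transcript with the largest fitted change was ncRNA_aligned_5173, a region predicted by the program RNAz to fold into a conserved RNA structure. It had no read in either KO normal library and 14.7 and 30.5 CPM in the obstructed ones. With the normal group set at 3 counts over the group it was at least 70.2-fold higher, and its edgeR adjusted p was 0.238. Wild-type kidneys showed the same pattern, with no read in the normal libraries and 12.7 and 15.0 CPM in the obstructed ones (at least 42.9-fold, edgeR adjusted p = 0.0400).

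A cDNA described as noncoding, ncRNA_aligned_2042 (AK004424), measured 1.83 and 0 CPM in the normal and 35.9 and 107.9 CPM in the obstructed knockout. In wild-type kidney it was present in all 4 libraries, at 47.7 and 52.7 CPM in the normal and 38.6 and 27.7 CPM in the obstructed ones. As with ncRNA_aligned_1946, the 2 normal knockout libraries were the low ones. Its log2 fold change in the knockout was 6.23 (edgeR adjusted p = 0.238) and its difference from the wild type was 6.83 (edgeR adjusted p = 0.247), so neither passed. In 2 further transcripts, without a match, the same shape recurred: ncRNA_predict_2558 was at 2.03 and 0.454 CPM in the normal and 28.1 and 33.6 CPM in the obstructed knockout, with 23.7 and 36.6 CPM in normal wild-type kidney. For ncRNA_predict_5079 the values were 3.45 and 0.908 CPM, 21.9 and 46.7 CPM, and 13.3 and 17.1 CPM in the same order.

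Most of the other named transcripts on the higher side were also higher in obstructed wild-type kidney. The transcript ncRNA_aligned_7075 (AK086894) measured 12.6 and 41.5 CPM in the normal and 332.1 and 137.0 CPM in the obstructed knockout, a log2 fold change of 3.12 (edgeR adjusted p = 0.238), and in the wild type it rose by a log2 fold change of 3.17 (edgeR adjusted p = 0.0261). Likewise ncRNA_aligned_3569 (AK045645) measured 8.53 and 8.40 CPM against 38.3 and 107.2 CPM (log2 fold change 3.10, edgeR adjusted p = 0.125), and it rose in the wild type (3.41, edgeR adjusted p = 0.00432). A further transcript that rose in the wild type was ncRNA_aligned_3314 (AK089314), at 2.23 and 2.95 CPM against 18.5 and 35.6 CPM in the knockout and 5.35 and 1.52 CPM against 80.3 and 171.1 CPM in the wild type. For that transcript it was a log2 fold change of 3.38 in the knockout (edgeR adjusted p = 0.1203) and 5.19 in the wild type (edgeR adjusted p = 2.98e-04), and the difference between them did not pass (edgeR adjusted p = 0.893). An EvoFold region, ncRNA_aligned_5773, which is another kind of predicted conserved RNA structure, measured 1.02 and 6.36 CPM against 51.1 and 30.5 CPM in the knockout. Reads covered only 2.99% to 5.59% of its length in these libraries, so the levels rest on a small part of it.

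For a further transcript the obstructed knockout libraries were the highest of the 8. A cDNA described as noncoding, ncRNA_aligned_1069 (AK003807), measured 1.42 and 1.36 CPM in the normal and 23.7 and 84.8 CPM in the obstructed knockout, and 0.855 and 1.95 CPM against 5.21 and 5.12 CPM in the wild type. Its log2 fold change was 5.27 in the knockout (SE 1.24, edgeR adjusted p = 0.247), and the difference between genotypes, 3.40, did not pass (edgeR adjusted p = 0.888). The last matched transcripts named on this side, ncRNA_aligned_3324, ncRNA_aligned_4340 and ncRNA_aligned_3714, had log2 fold changes of 3.36, 3.29 and 3.15 with edgeR adjusted p-values of 0.755, 0.353 and 0.359. The first of them rested on a normal group with values as far apart as 1.22 and 32.5 CPM, and its reads covered 5.56% to 17.5% of its length.

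Among the matched transcripts named on the lower side, the largest fitted change was that of Xist (ncRNA_aligned_7784, 17760 bases), with 24.2 and 1279 CPM in the normal and 0.426 and 1.00 CPM in the obstructed knockout. Nearly all of the normal group's level came from KO normal 2. The log2 fold change was -9.86 with an SE of 3.12 (edgeR adjusted p = 0.755), and without KO normal 2 it was -5.10. Mice of both sexes were used and the sex behind each library is not given. For Xist, and for any other transcript whose level differs with sex, an effect of obstruction and a difference in sex therefore cannot be told apart. The genotype difference of the response, which uses the same knockout libraries, has the same limit. The predicted transcript ncRNA_predict_269 followed a like pattern, with 0.406 and 61.1 CPM in the normal and no read in the obstructed knockout, at least 157-fold lower with the obstructed group set at 3 counts (edgeR adjusted p = 0.602).

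Better matched between replicates were transcripts that both obstructed libraries held at a fraction of both normal ones. The cDNA match ncRNA_aligned_3750 (AK029777, 579 bases) measured 29.9 and 18.4 CPM in the normal and 0.639 and 0.669 CPM in the obstructed knockout, a log2 fold change of -5.17 (SE 0.97, edgeR adjusted p = 0.0918). In wild-type kidney it fell from 10.3 and 10.4 CPM to 0 and 0.672 CPM (edgeR adjusted p = 0.00793). The predicted transcript ncRNA_predict_6143 went from 39.0 and 40.0 CPM to 2.02 and 4.18 CPM in the knockout (log2 fold change -3.68, edgeR adjusted p = 0.1203), and it fell in the wild type, from 33.99 and 27.75 CPM to 0.745 and 1.26 CPM (edgeR adjusted p = 0.00132).

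Among the more abundant ones, ncRNA_aligned_932 (M25176) measured 5184 and 3346 CPM in the normal and 437.5 and 652.2 CPM in the obstructed knockout. A match with the neighbouring accession, ncRNA_aligned_931 (M25175), measured 456.2 and 346.0 CPM against 48.2 and 49.4 CPM. Their log2 fold changes were -2.97 and -3.04, both with an edgeR adjusted p of 0.247, and how reads of similar sequences were shared between them is not recorded. In normal wild-type kidney both were lower than in normal knockout kidney, at 987.3 and 593.8 CPM and at 110.5 and 63.3 CPM. The cDNA ncRNA_aligned_3502 (AK042638) measured 629.6 and 2333 CPM against 92.8 and 232.9 CPM in the knockout (log2 fold change -3.19, edgeR adjusted p = 0.391), and it fell in the wild type from 2565 and 2394 CPM to 62.4 and 72.4 CPM (edgeR adjusted p = 0.00979). The cDNA ncRNA_aligned_4945 (AK008413) measured 273.1 and 925.1 CPM against 52.4 and 100.1 CPM (log2 fold change -2.98, edgeR adjusted p = 0.208), and it fell in the wild type (-4.38, edgeR adjusted p = 0.00215).

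The cDNA match ncRNA_aligned_6637 (AK010197) measured 31.7 and 20.9 CPM in the normal and 1.597 and 3.681 CPM in the obstructed knockout, and 10.5 and 4.55 CPM against 3.58 and 7.22 CPM in the wild type. Its log2 fold change was -3.33 in the knockout (edgeR adjusted p = 0.235) and -0.47 in the wild type, and their difference did not pass (edgeR adjusted p = 0.679). The other matched transcripts named on this side, ncRNA_aligned_2995, ncRNA_aligned_2342, ncRNA_aligned_4322, ncRNA_aligned_3756 and ncRNA_aligned_2377, had log2 fold changes between -5.74 and -2.85 and edgeR adjusted p-values between 0.346 and 0.823. The predicted transcripts ncRNA_predict_15892, ncRNA_predict_4555 and ncRNA_predict_110 lay between -4.28 and -3.37, with edgeR adjusted p-values between 0.235 and 0.819. On the higher side, ncRNA_predict_3950, ncRNA_predict_4954 and ncRNA_predict_2563 lay between 2.52 and 3.38 (edgeR adjusted p between 0.165 and 0.308).

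Whether the knockout kidney responded as the wild type did was asked over transcripts with a mean of 10 CPM or more over the 8 libraries concerned, which share none between the genotypes. Of these 4330 transcripts 75.2% had a log2 fold change of the same sign in both genotypes, and the fold changes correlated at r = 0.578, or r = 0.451 without the 3 libraries of low coverage breadth (across transcripts, as a description). Obstruction was on the lower side in the wild type for 69.9% of them. Of the 161 transcripts on the higher side of the filter in the knockout, 131 (81.4%) had a positive log2 fold change in the wild type, where 40 were called higher, and of the 400 on the lower side 380 (95%) had a negative one and 150 were called lower. Among all 4303 transcripts of 10 CPM or more over the knockout libraries compared, 78 were called higher and 341 lower in the wild type. The median log2 fold change of the 161 was 1.57 in the knockout and 1.42 in the wild type, and that of the 400 was -1.50 and -1.80. The pairs WT UUO 1 and KO UUO 1 shared the low breadth of coverage, and the part of that in the likeness was not tested beyond the r given.

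The difference between the genotypes' responses was called for 15 transcripts (0.0604% of those tested), 11 with a more positive and 4 with a more negative response in the knockout. Leaving out 1 library gave 44 calls (without KO UUO 1), 42 (without KO UUO 2), 6 (without either KO normal library or WT UUO 2), 4 (without WT normal 1) or 3 (without WT normal 2), and 15 to 22 otherwise. In all 11 the normal knockout libraries lay below the normal wild-type libraries. In 9 the obstructed knockout libraries lay above the obstructed wild-type ones, and 10 were called lower with obstruction in the wild type. In all 4 of the other kind the order was the opposite at both states and the transcript rose in the wild type. Levels in normal kidney enter the difference itself, so these orders describe the calls and are no further support for them.

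The clearest reversal was that of ncRNA_aligned_2421 (AK014162, described as noncoding, 1580 bases). It measured 0.609 and 1.14 CPM in normal and 19.4 and 14.2 CPM in obstructed knockout kidney, but 84.2 and 53.3 CPM in normal and 2.68 and 1.18 CPM in obstructed wild-type kidney. The transcript was thus low in normal knockout and in obstructed wild-type kidney and higher in obstructed knockout and in normal wild-type kidney, with the replicates of these groups close to each other. In the knockout the log2 fold change was 4.25 (SE 0.86, edgeR adjusted p = 0.121), in the wild type -5.17 (edgeR adjusted p = 0.00136), and the difference of 9.42 (SE 1.20, edgeR adjusted p = 4.61e-04) was called in all 12 fits that leave out 1 library.

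Of ncRNA_aligned_4173, a cDNA match of 9357 bases without a description, the levels were 39.0 and 32.5 CPM in normal and 229.3 and 234.6 CPM in obstructed knockout kidney. In the wild type they were 168.0 and 341.7 CPM and, with obstruction, 66.0 and 49.9 CPM. The difference was 4.83 (SE 0.75, edgeR adjusted p = 0.00797), from a log2 fold change of 2.70 in the knockout and -2.14 in the wild type. It was lost without KO normal 1 (edgeR adjusted p = 0.0922), KO normal 2 (0.0815), WT normal 2 (0.167) or WT UUO 2 (0.0549). The cDNA ncRNA_aligned_999 (AK008073) had the same shape at lower levels, with 1.22 and 4.09 CPM against 7.98 and 30.3 CPM in the knockout and 39.8 and 58.8 CPM against 1.19 and 5.79 CPM in the wild type, and a difference of 6.63 (SE 1.14, edgeR adjusted p = 0.0200). Leaving out KO normal 1 (edgeR adjusted p = 0.258), KO normal 2 (0.0566), WT normal 1 (0.0622), WT normal 2 (0.167) or WT UUO 1 (0.0625) ended that call.

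As with ncRNA_aligned_2421, ncRNA_aligned_4173 and ncRNA_aligned_999, a further 3 transcripts fell in the wild type and were not called in the knockout. A cDNA described as noncoding, ncRNA_aligned_4910 (AK020541), measured 25.8 and 31.3 CPM in normal and 15.9 and 33.1 CPM in obstructed knockout kidney, which overlap, and fell in the wild type from 62.6 and 95.6 CPM to 0.447 and 0.252 CPM. The difference was 7.59 (SE 0.95, edgeR adjusted p = 4.61e-04) and was called in all 12 fits that leave out 1 library. A mouse long noncoding RNA entry, ncRNA_aligned_6640, had no read in normal knockout kidney and 0.532 and 1.17 CPM in obstructed knockout kidney, and fell in the wild type from 88.1 and 84.6 CPM to 0.894 and 0.588 CPM. Its difference was called in all 12 of those fits (edgeR adjusted p = 4.61e-04), but with a group at 0 the fitted size depends on the prior count, and in the knockout the change was at least 2.65-fold with the normal group set at 3 counts. The predicted transcript ncRNA_predict_5269 measured 2.44 and 9.54 CPM against 5.54 and 24.1 CPM in the knockout, which overlap, and 38.3 and 31.7 CPM against 0.298 and 0.923 CPM in the wild type (edgeR adjusted p of the difference = 0.0221). That call ended without KO normal 1 (0.270), KO normal 2 (0.0566), WT normal 1 (0.168), WT normal 2 (0.167), WT UUO 1 (0.0922) or WT UUO 2 (0.0558).

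The 4 transcripts of the opposite kind rose in obstructed wild-type kidney. An EvoFold region, ncRNA_aligned_943, went from 8.98 and 11.5 CPM to 606.2 and 550.3 CPM in the wild type, and from 18.5 and 42.9 CPM to 124.1 and 120.6 CPM in the knockout. Both obstructed knockout libraries were thus above both normal ones, but well below the obstructed wild-type libraries. The log2 fold change was 2.00 in the knockout (SE 0.51, edgeR adjusted p = 0.247) and 5.82 in the wild type (edgeR adjusted p = 1.51e-05), and the difference was -3.82 (SE 0.72, edgeR adjusted p = 0.0391). It was lost without KO normal 2 (edgeR adjusted p = 0.278), WT normal 1 (0.369), WT normal 2 (0.388), WT UUO 1 (0.0764) or WT UUO 2 (0.0803).

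A cDNA described as noncoding, ncRNA_aligned_2597 (AK134218), measured 27.4 and 10.9 CPM in normal and 17.5 and 12.6 CPM in obstructed knockout kidney, and 8.766 and 5.203 CPM against 125.4 and 254.9 CPM in the wild type. The knockout groups overlap, and the difference was -5.12 (SE 0.95, edgeR adjusted p = 0.0391). Of the 12 fits that leave out 1 library 4 kept the call. It was lost without WT normal 1 (edgeR adjusted p = 0.217), WT normal 2 (0.469), WT UUO 2 (0.115), KO normal 1 (0.299), KO UUO 1 (0.0759) or KO UUO 2 (0.0783), and also without either WT anti-GBM library (0.0516 and 0.0513).

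The short cDNA matches ncRNA_aligned_4494 (AK156533, 255 bases) and ncRNA_aligned_7971 (AK089828, 386 bases) were on the lower side in the knockout and rose in the wild type. The first measured 19.9 and 16.4 CPM against 6.49 and 5.52 CPM in the knockout and 3.42 and 0.867 CPM against 27.7 and 88.6 CPM in the wild type, a difference of -6.34 (SE 1.07, edgeR adjusted p = 0.0186). The second measured 23.1 and 8.40 CPM against 3.94 and 5.86 CPM and, in the wild type, 3.42 and 3.03 CPM against 28.8 and 74.7 CPM, a difference of -5.69 (SE 1.04, edgeR adjusted p = 0.0335). Without 1 of 5 libraries the first lost its call (KO normal 1, 0.0922; KO normal 2, 0.0527; WT normal 1, 0.0622; WT normal 2, 0.378; WT UUO 2, 0.116, all edgeR adjusted p), and so did the second (KO normal 1, 0.322; KO UUO 1, 0.0504; WT normal 1, 0.347; WT normal 2, 0.469; WT UUO 2, 0.170).

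**Figure D3:**
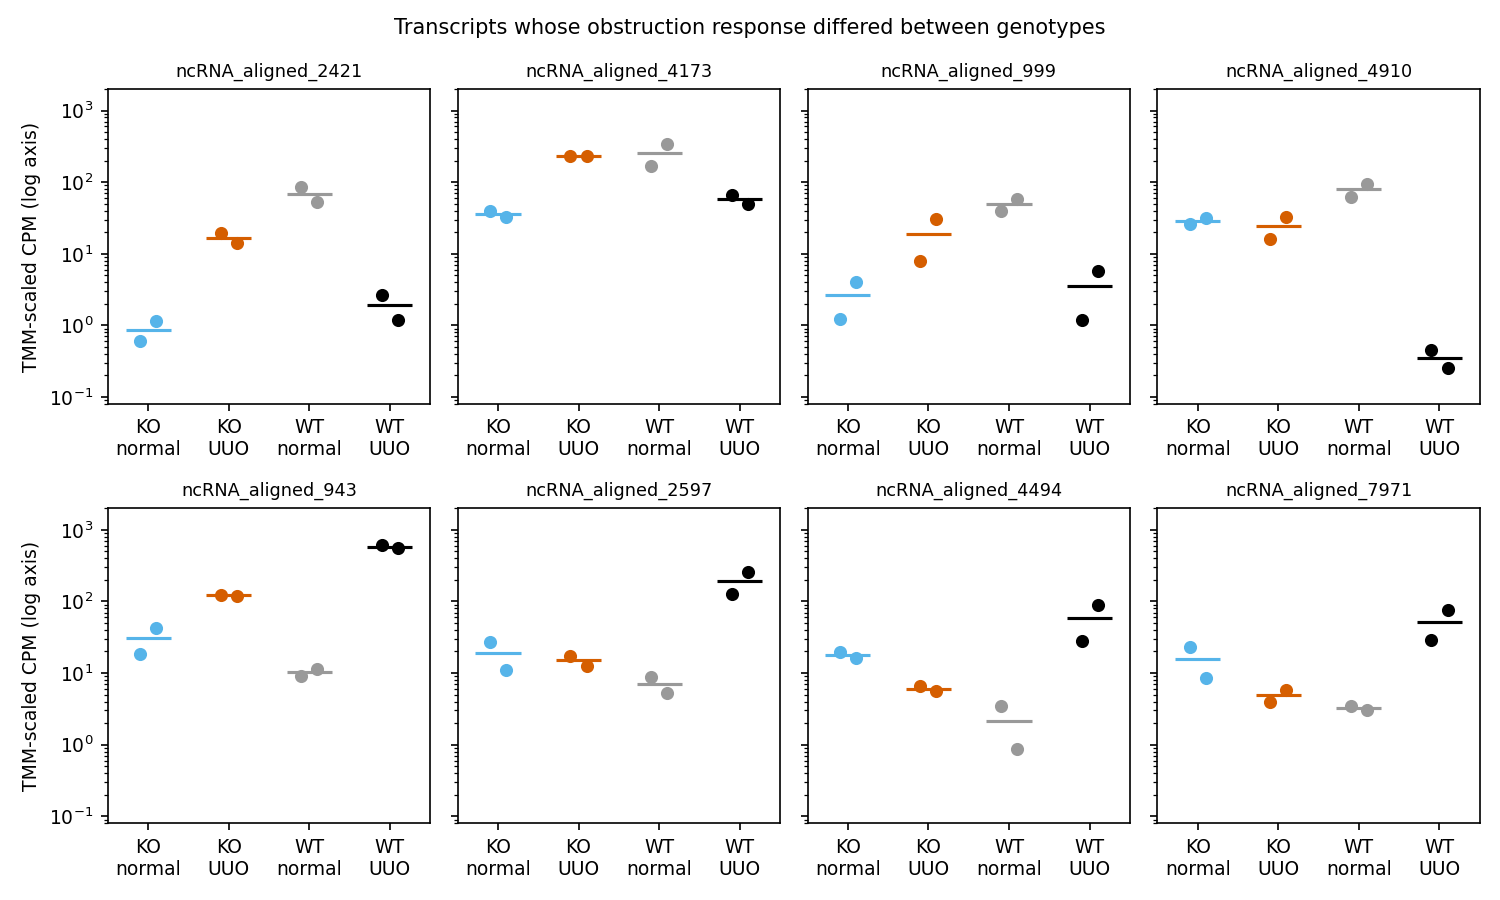
Levels in TMM-scaled CPM (log axis) of 8 transcripts whose response to obstruction differed between genotypes; each point is 1 library and each line the mean of 2. In the top row the WT normal libraries are high and the WT UUO libraries low, in the bottom row the reverse, and for ncRNA_aligned_2421 the KO libraries run opposite to the WT libraries.

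**Figure D4:**
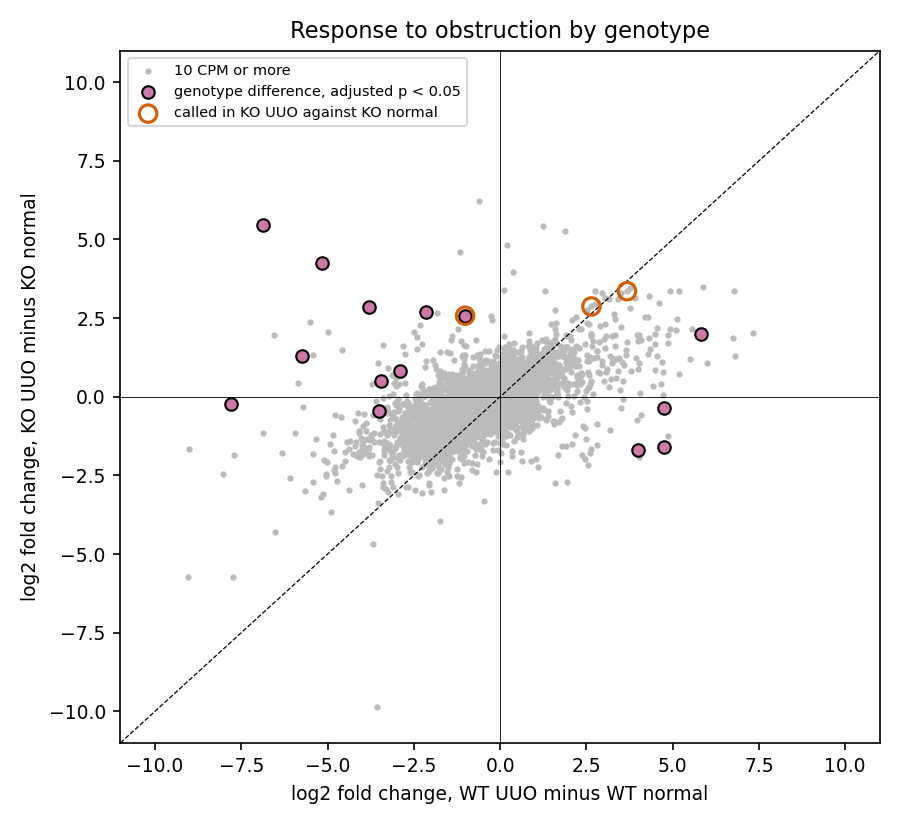
Log2 fold change with obstruction in the knockout against that in the wild type, for 4330 transcripts of 10 CPM or more over 8 libraries; the dashed line marks equal responses. Pink points are transcripts called for the genotype difference, and orange rings the 3 transcripts called in the knockout, 2 of which lie near the dashed line while ncRNA_aligned_1946 lies to its left.

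Elements of known RNAs and microRNA precursors give the parts of the tables with a known role. None of 26 tested transcripts of the element list, out of 36 listed, was called in the knockout by edgeR, against 0.0121% of all transcripts tested. Before adjustment, edgeR's p was under 0.05 for 2 on the higher and 6 on the lower side, against 2.82% and 3.16% of all tested. The 20 members with 10 CPM or more held the same 2 and 6, against 164 and 406 of all 4303 transcripts at that level. DESeq2 called 3 of the 26, of which 2 were higher and 1 lower, against 0.492% of all transcripts tested. The largest group was the selenocysteine insertion sequence (SECIS) matches. A SECIS element is a hairpin in the 3′ untranslated region of selenoprotein mRNAs that lets a stop codon be read as selenocysteine, and selenoproteins include the glutathione peroxidases, of which kidney tubules make one for secretion into plasma. Of 17 such transcripts 12 were tested and 11 had 10 CPM or more; of the 11, the obstructed libraries were below the normal ones without overlap for 7 and above for 1. Over all transcripts of 10 CPM or more the shares were 31.8% and 15%. Among the 7, ncRNA_aligned_922 and ncRNA_aligned_3688 match the same sequence record, so the 7 need not be separate elements. The median log2 fold change of the 12 was -1.11 in the knockout and -2.40 in the wild type, while the median over all tested was 0.003 and 0.49. With 10 CPM or more asked for, it was -1.27 and -2.45 for the 11, against -0.263 and -0.64 over all 4303. In the wild type edgeR called 6 of the 12 lower and 1 higher, against 431 lower and 169 higher of all 24816 tested. The median of the 12 in the knockout was -0.43 with library size alone as the scaling, under which the median of all transcripts was 0.58.

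The SECIS match ncRNA_aligned_6494 measured 2068 and 2692 CPM in the normal and 763.7 and 1047 CPM in the obstructed knockout (log2 fold change -1.39, SE 0.39, edgeR adjusted p = 0.359). In the wild type it fell from 2665 and 2042 CPM to 363.2 and 356.5 CPM (-2.71, edgeR adjusted p = 7.46e-04). Normal kidneys of both genotypes overlapped in level, and the obstructed knockout lay between them and the obstructed wild type. The same order held for ncRNA_aligned_5109, at 2495 and 3847 CPM against 485.7 and 1277 CPM in the knockout and 2712 and 2361 CPM against 206.8 and 530.4 CPM in the wild type, though there the obstructed groups overlap. It also held for the group means of ncRNA_aligned_2294, at 2774 and 4015 CPM against 919.5 and 1797 CPM in the knockout and 3587 and 3690 CPM against 512.2 and 923.9 CPM in the wild type. None of the 12 passed the test of the difference between genotypes (lowest edgeR adjusted p = 0.755).

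The exception was ncRNA_aligned_2317, a SECIS match of 6290 bases. It measured 0.609 and 3.86 CPM in the normal and 16.0 and 33.6 CPM in the obstructed knockout, a log2 fold change of 3.48 (edgeR adjusted p = 0.165), and rose in the wild type from 3.42 and 2.17 CPM to 112.5 and 219.0 CPM (5.88, edgeR adjusted p = 3.63e-04). The obstructed wild-type libraries were above the obstructed knockout ones, and the difference in response, -2.40, did not pass (edgeR adjusted p = 0.774). The SECIS match ncRNA_aligned_6317 was level, at 421.1 and 359.6 CPM against 381.7 and 353.2 CPM in the knockout.

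**Figure D5:**
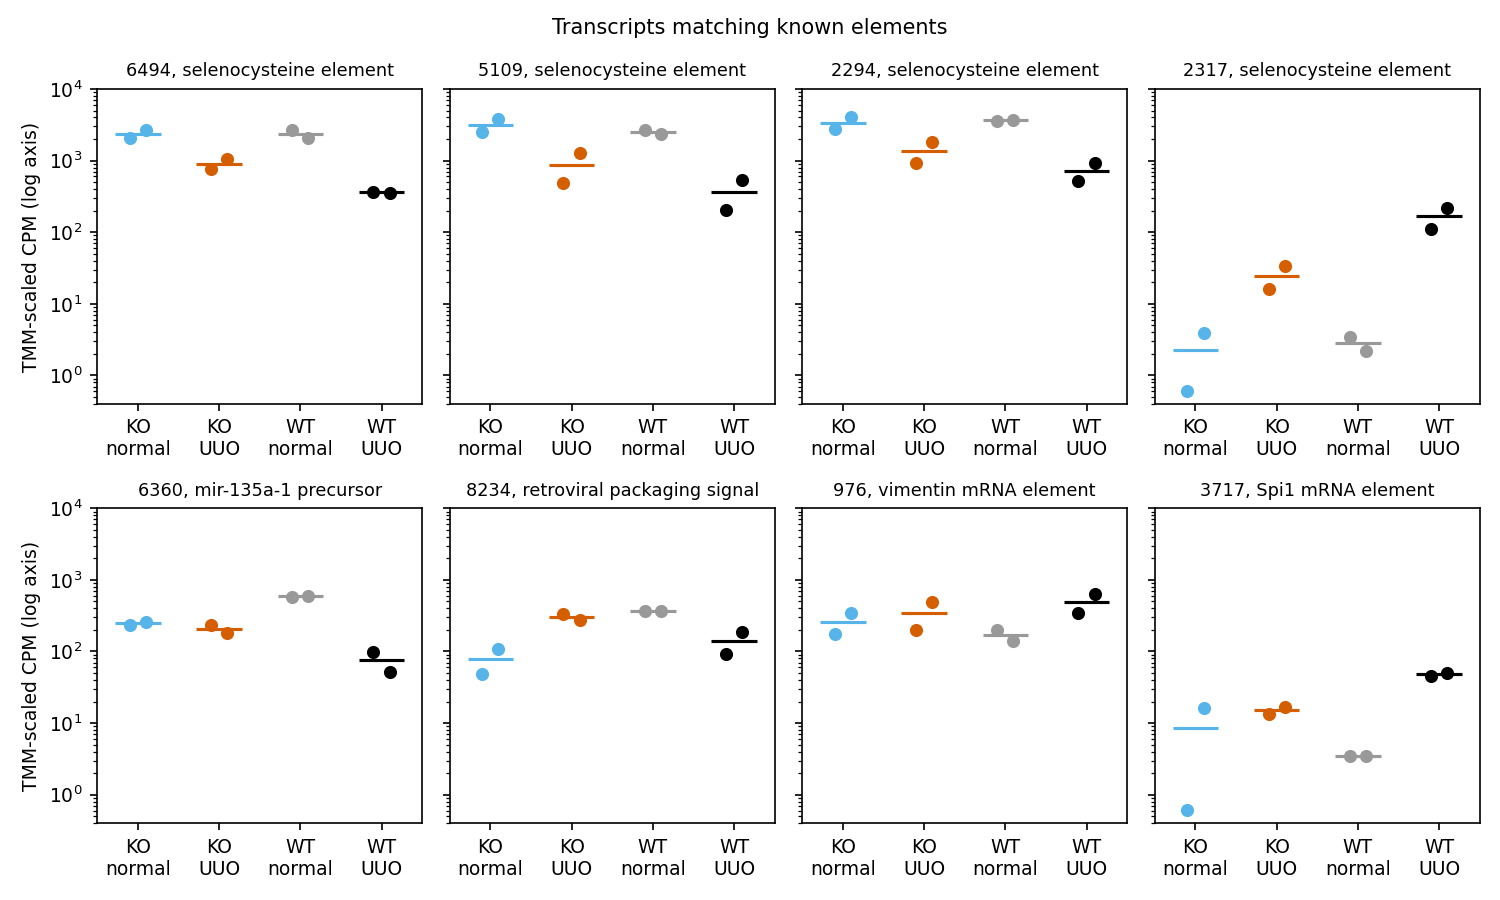
Levels in TMM-scaled CPM (log axis) of 8 transcripts that match known elements; each point is 1 library and each line the mean of 2. The first 3 selenocysteine panels are lower in both obstructed groups, the fourth is higher, and the mir-135a-1 precursor panel is low only in the WT UUO libraries, at 98.2 and 51.5 CPM.

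From a list of microRNAs tied to TGF-β and Smad3, 4 transcripts were tested, and 3 of them had 10 CPM or more. Their transcripts are 4267, 8523 and 6411 bases long and the RNA was taken above 150 bases, so the values are of long precursor or host transcripts and not of mature microRNAs. The mature sequences, from RefSeq on the GRCm38.p6 build, are printed to show which targeting seeds (bases 2 to 8, in capitals) these precursors carry; each has a seed of its own. miR-135a-5p lies at chr9:106154140-106154162 on the plus strand, miR-200b-3p at chr4:156055685-156055706 on the minus strand and let-7c-5p, from the let-7c-2 gene, at chr15:85706616-85706637 on the plus strand.
miR-135a-5p: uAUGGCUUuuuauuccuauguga
miR-200b-3p: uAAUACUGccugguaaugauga
let-7c-5p: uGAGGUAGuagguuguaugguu

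The precursor match of mir-135a-1 (ncRNA_aligned_6360, 4267 bases) stayed between 179.2 and 259.0 CPM in the 4 KO libraries, at 234.1 and 259.0 CPM in the normal and 234.9 and 179.2 CPM in the obstructed ones. In the wild type it fell from 578.3 and 599.0 CPM to 98.2 and 51.5 CPM (log2 fold change -2.98, edgeR adjusted p = 7.65e-04). The log2 fold change in the knockout was -0.25 (SE 0.42, edgeR adjusted p = 0.946), and the difference between genotypes, 2.72 (SE 0.60), did not pass (edgeR adjusted p = 0.103). The precursor of mir-200b, a microRNA that keeps epithelial cells from turning mesenchymal by silencing Zeb1 and Zeb2 and carries the seed AAUACUG, measured 36.3 and 15.4 CPM in the normal and 52.3 and 30.6 CPM in the obstructed knockout (0.68, edgeR adjusted p = 0.883). That of let-7c-2, of the let-7 family that holds back growth genes in differentiated cells, measured 28.2 and 31.3 CPM against 93.6 and 25.4 CPM (1.00, edgeR adjusted p = 0.837). In both the groups overlap, and for let-7c-2 the high value was that of KO UUO 1, without which its log2 fold change (ncRNA_aligned_5468) was -0.25. Mir155 was below 10 CPM.

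The match to a gammaretrovirus core encapsidation signal (ncRNA_aligned_8234), which in a retrovirus guides the RNA genome into the particle, measured 48.1 and 109.2 CPM in the normal and 335.1 and 270.7 CPM in the obstructed knockout. The groups did not overlap, and the log2 fold change was 1.95 (SE 0.47, edgeR adjusted p = 0.235). In the wild type the normal libraries were at 366.2 and 372.3 CPM and the obstructed ones at 91.9 and 188.0 CPM (-1.40, edgeR adjusted p = 0.124), so the genotypes ran in opposite directions, with a difference of 3.34 (SE 0.66, edgeR adjusted p = 0.0582). The change in the knockout passed without the 3 libraries of low coverage breadth (1.76, edgeR adjusted p = 0.0331) and without KO UUO 2 (2.09, edgeR adjusted p = 0.0464), but not without KO UUO 1 (1.76, edgeR adjusted p = 0.7002). Over the 11 other ways of scaling, filtering or testing, which include the fit without the 3 libraries of low coverage breadth, 4 called the change in the knockout. The genotype difference of ncRNA_aligned_8234 was called in 6 of the 11. A second such match, ncRNA_aligned_8305, was below 10 CPM.

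Elements of genes tied to injury and scarring were level or noisy in the knockout. The vimentin mRNA element (ncRNA_aligned_976), from an intermediate filament gene of fibroblasts and injured tubules, measured 175.8 and 344.8 CPM against 197.8 and 496.6 CPM (log2 fold change 0.42, SE 0.49, edgeR adjusted p = 0.919), and the groups overlap. The Spi1 mRNA element (ncRNA_aligned_3717), from a transcription factor of myeloid leukocytes, measured 0.609 and 16.4 CPM in the normal and 13.4 and 16.6 CPM in the obstructed knockout (0.83, edgeR adjusted p = 0.895). In the wild type it rose from 3.42 and 3.47 CPM to 44.8 and 50.7 CPM (3.79, edgeR adjusted p = 0.0250), and the difference between genotypes, -2.96 (SE 1.18), did not pass (edgeR adjusted p = 0.723). The element of connective tissue growth factor, a TGF-β target that promotes matrix deposition (ncRNA_aligned_6524), measured 299.7 and 107.2 CPM against 189.8 and 201.9 CPM (-0.06, edgeR adjusted p = 0.993).

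The internal ribosome entry site of c-myc, a growth regulator (ncRNA_aligned_683), measured 25.6 and 12.7 CPM against 16.6 and 36.1 CPM (log2 fold change 0.46, edgeR adjusted p = 0.934). The stability element of renin, the enzyme that starts the angiotensin cascade (ncRNA_aligned_2307), measured 130.8 and 521.7 CPM against 311.5 and 379.6 CPM (0.08, edgeR adjusted p = 0.992). Neat1, the RNA that nuclear paraspeckles form around (ncRNA_aligned_3989, 21378 bases), measured 190.2 and 52.0 CPM against 272.1 and 182.5 CPM (0.91, SE 0.73, edgeR adjusted p = 0.887). In these 3 the groups overlap. The G-CSF mRNA element (ncRNA_aligned_11387), from a growth factor for neutrophils, had no read in any of the 4 knockout libraries, which allows up to 0.322 CPM in the normal and 0.195 CPM in the obstructed group (3 counts over the group, counting error only), whereas the obstructed wild-type libraries had 1.79 and 7.89 CPM. RNase MRP RNA (ncRNA_aligned_6544), which takes part in ribosomal RNA processing, measured 16230 and 22000 CPM against 39150 and 5006 CPM (0.21, edgeR adjusted p = 0.986), with KO UUO 1 the highest and KO UUO 2 the lowest of the 4. Without the 3 libraries of low coverage breadth its log2 fold change was -1.95 (edgeR adjusted p = 0.00493), so its direction rests on KO UUO 1.

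The predicted transcripts ncRNA_predict_5318, ncRNA_predict_17856 and ncRNA_predict_28496, which were listed by name for description, were low, at no more than 4.26 CPM in any of the 4 libraries. All 3 were higher in both normal than in both obstructed knockout libraries, an order that 19.3% of all tested transcripts had. Their log2 fold changes were -3.15, -3.44 and -3.24, with edgeR adjusted p-values of 0.749, 0.839 and 0.839.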

How the data were processed

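Kidney RNA was frozen, freed of ribosomal RNA and size-selected above 150 bases on a urea gel before cDNA synthesis, per the labels' protocols. Reads were aligned with Bowtie 0.12.7 and the build is mm9, per the submitters' processing notes; how transcripts were assembled and reads assigned to them, and any strand setting, are not given in the sources used here, so reads from overlapping transcripts on opposite strands cannot be told apart. Per the file headers, each of the 12 deposited tables gives the count of uniquely mapped reads of each transcript, its length and its best database match. The authors also deposited RPKM, which equal the counts scaled by length and by the reads listed in the table (largest relative deviation 1.75e-14), and the percent of each transcript's length covered. The deposited signal (mean coverage depth) fits a read length of 90 bases. Transcripts that a table does not list had 0 reads there.

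The test was edgeR 4.0.16 (under R 4.3.3; TMM, filterByExpr by group with a minimum count of 10, 1 mean per group over all 12 libraries, robust quasi-likelihood fit), and the script was tested on simulated data. The SE is the log2 fold change divided by the square root of F. Permuting 2 libraries against 2 cannot reach the threshold, so calls rest on the spread over all groups. Alternatives used limma 3.58.1 and DESeq2 1.42.0. A group at 0 reads was set at 3 counts over the group; such floors cover counting error only. Reads on the 4 KO libraries ran from 5961009 to 6514010, and with 2 libraries a group the precision is that of the SE printed. The labels give no replicate numbers across groups; numbers only name libraries.

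The compared groups, lists, tests and alternatives were chosen with earlier results of these data known. Named transcripts are all calls, up to 12 matched (small RNA genes left out) and 5 predicted transcripts per direction of largest log2 fold change within the filter given, up to 6 per direction called for the genotype difference at 10 CPM or more, and the members of the element, microRNA and predicted lists at 10 CPM or more; those below it are named where stated. RefSeq microRNA sequences were matched by name for 3 of 4 list members. Of 182 Ensembl matches 162 got a gene name from the annotation of that build.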

Additional observations from a re-analysis of the deposited data

Results flagged for a closer look

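Each result here is a transcript whose response to obstruction differed between the knockout and the wild type by a test of the difference itself (edgeR's quasi-likelihood test, adjusted p under 0.05, over 24816 transcripts). Differences are log2 fold change in the knockout minus that in the wild type. They were positive for ncRNA_aligned_6640 (12.332, a fitted value that depends on the prior count since normal knockout kidney had no read), ncRNA_aligned_2421 (9.421), ncRNA_aligned_4910 (7.585), ncRNA_predict_5269 (7.031), ncRNA_aligned_999 (6.631), ncRNA_aligned_4173 (4.835) and ncRNA_aligned_1946 (3.591). They were negative for ncRNA_aligned_4494 (-6.337), ncRNA_aligned_7971 (-5.686), ncRNA_aligned_2597 (-5.115) and ncRNA_aligned_943 (-3.822).

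The first 3 of these, ncRNA_aligned_6640, ncRNA_aligned_2421 and ncRNA_aligned_4910, were called in all 12 fits that leave out 1 library, with a highest edgeR adjusted p of 0.0274, 0.0377 and 0.0274. Of those 12 fits 8 called ncRNA_aligned_4173, 7 called each of ncRNA_aligned_1946, ncRNA_aligned_999, ncRNA_aligned_4494, ncRNA_aligned_7971 and ncRNA_aligned_943, 6 called ncRNA_predict_5269 and 4 called ncRNA_aligned_2597. Over 11 other settings, 10 called ncRNA_aligned_6640, and between 6 and 9 called each of the others. The difference of ncRNA_aligned_1946 ended without KO normal 1 (edgeR adjusted p = 0.204), KO normal 2 (0.0844), WT normal 1 (0.0622), WT normal 2 (0.167) or WT UUO 2 (0.114).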

How the results depend on the processing

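The share of tested transcripts called in the knockout, 0.0121% or 3 calls, was 0.00806% with DESeq2 size factors (2 higher, 0 lower), 0.254% with library size alone (59 higher, 4 lower), 0.492% with the DESeq2 test (66 higher, 56 lower), 0.25% with no filter on low counts (39 higher, 67 lower), 0.0138% with a minimum count of 50 (1 call), 0.851% without the 3 libraries of low coverage breadth (211 calls, 105 of them lower), 0.00403% without robust estimation (1 call), 0.0282% with limma voom (7 calls) and 0.00403% with limma on log2 of RPKM plus 1 (1 call). It was 0.0% with only the 4 libraries compared (edgeR; 1152 at an unadjusted p under 0.05) and with limma on log2 of RPKM plus 0.1 (2287 at an unadjusted p under 0.05). Leaving out 1 library gave shares of 0.00403% to 0.741%, or 1 to 184 calls. The 184, 26 higher and 158 lower, came without KO UUO 2, when the lone KO UUO 1 is assumed to vary like the other groups; there were 16 without KO anti-GBM 1, 7 without KO anti-GBM 2 or either WT anti-GBM library, 5 without either WT UUO library, and 1 without either WT normal library or without KO normal 1. Library size alone moved the median log2 fold change of all transcripts from 0.003 to 0.58.

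The count of genotype differences, 15, was 18 with DESeq2 size factors, 28 with library size alone (10 positive, 18 negative), 142 with the DESeq2 test, 133 with no filter, 2 with a minimum count of 50, 19 with only the libraries of the 4 groups, 414 without the 3 libraries of low breadth, 4 without robust estimation, 22 with voom, 44 with RPKM plus 1 (9 positive, 35 negative) and 0 with RPKM plus 0.1 (limma; 2052 at an unadjusted p under 0.05). Leaving out 1 library gave 3 to 44: 44 without KO UUO 1, 42 without KO UUO 2, 6 without KO normal 1, KO normal 2 or WT UUO 2, 4 without WT normal 1 and 3 without WT normal 2.

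Several directions turned, each of a value that was not called. The genotype difference of ncRNA_aligned_1409 was -0.088 with library size alone, -0.113 with RPKM plus 1, -0.038 with RPKM plus 0.1 and -0.274 to 0.993 when 1 library was left out (negative without KO normal 1, KO UUO 1 or WT UUO 2, at -0.274, -0.068 and -0.139). That of ncRNA_aligned_6916 was 0.157 without the 3 libraries of low breadth and -0.72 to 0.295 when 1 library was left out (0.295 without WT UUO 1). The log2 fold change of ncRNA_aligned_6544 turned from 0.208 to -1.955 without the 3 libraries, where it was called (edgeR adjusted p = 0.00493; 0.814 to 1.0 under the other settings that keep all libraries or those of the groups compared). Others turned too: that of ncRNA_aligned_5468 went from 1.00 to -0.248 without KO UUO 1 and that of ncRNA_predict_5269 from 1.304 to -0.107 without KO UUO 2, while the genotype differences of ncRNA_aligned_2995 (2.001) and ncRNA_aligned_4322 (0.622) ran from -5.021 to 6.269 and from -4.936 to 4.862 when 1 library was left out. The cause of these changes was not tested. For log2 fold changes of named transcripts, 1568 values under the alternatives kept their side of the threshold, 133 passed it and 25 lost it, whatever the size of the shift. The 1568 include turns of direction within the SE of the main fit. A further 28 uncalled values turned direction by more than that SE, and 1 turn, that of ncRNA_aligned_6544 given above, was counted apart. The microRNA precursor ncRNA_aligned_6360 read 0.44 with library size alone. Over the medians of match classes 234 stayed within the spread over pairs of 1 obstructed and 1 normal knockout library, and 38 moved beyond it. No paired analysis was possible because the labels carry no replicate numbers shared between groups.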

Other observations

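Of the small RNA genes, which the rule for named transcripts left out, the class with the lowest median in the knockout was that of small nucleolar and Cajal body RNAs. Small nucleolar RNAs (snoRNAs) guide the chemical modification of ribosomal RNA, and their relatives in Cajal bodies (scaRNAs) that of spliceosomal RNA. Of 108 tested matches to them none was called by edgeR; at an unadjusted p under 0.05, 15 were lower and 0 higher, against 3.16% and 2.82% of all transcripts. DESeq2 called 1 of the 108, SNORA79, as lower, against 56 lower and 66 higher of all 24816 transcripts tested. The median log2 fold change of the class was -0.84 in the knockout and -0.24 in the wild type, against 0.003 and 0.49 over all tested, and in the knockout it was -0.31 with library size alone, where all transcripts had a median of 0.58, and -0.70 without the 3 libraries of low coverage breadth. The class was more abundant, with a median level of 13.6 CPM against 1.69 CPM over all tested. Over all 4303 transcripts of 10 CPM or more the median log2 fold changes were -0.263 in the knockout and -0.64 in the wild type. In the knockout 406 of those 4303 were lower and 164 higher at an unadjusted edgeR p under 0.05. Many of the matched transcripts are longer than a snoRNA, and whether their reads come from the small RNA or from a host transcript was not tested.

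Some of the matches with an unadjusted edgeR p under 0.05 were short, near the size of the RNA itself. The examples here were picked by that p, so their direction is no further support for the order of the class. Scarna10 (ncRNA_aligned_7810, 259 bases) measured 1338 and 2411 CPM in the normal and 767.5 and 364.2 CPM in the obstructed knockout, a log2 fold change of -1.73 (SE 0.47, edgeR adjusted p = 0.346). A match to scaRNA6 (ncRNA_aligned_975) measured 411.1 and 422.3 CPM against 133.7 and 57.4 CPM (-2.12, SE 0.50, edgeR adjusted p = 0.216), and a second one (ncRNA_aligned_5108, 248 bases) 387.6 and 585.3 CPM against 205.3 and 94.0 CPM (-1.70, edgeR adjusted p = 0.434). For these 3 KO UUO 2 was the lower of the obstructed pair, while for others of the class, SNORA79 among them, KO UUO 1 was. The part of coverage breadth in these levels was not tested. SNORA79 (ncRNA_aligned_2426, 495 bases) measured 40.0 and 61.3 CPM against 5.32 and 7.70 CPM (-2.96, SE 0.73, edgeR adjusted p = 0.238). A small nuclear RNA match (ncRNA_aligned_2507, 413 bases) measured 34860 and 47260 CPM against 15280 and 13990 CPM (-1.49, edgeR adjusted p = 0.682), while a match to U2 spliceosomal RNA (ncRNA_aligned_7976, 314 bases) measured 36.5 and 66.3 CPM against 146.5 and 157.4 CPM (1.56, edgeR adjusted p = 0.823).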
